A study of Arabidopsis thaliana with 72 samples.

Results

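Transcripts encoded in the chloroplast and mitochondrial genomes were followed in Arabidopsis seedlings treated with N-hydroxy-pipecolic acid (NHP), a signal of systemic acquired resistance. The members are the rows of the count table whose locus identifier begins with ATCG (chloroplast genome) or ATMG (mitochondrial genome) and that reached a count of 10 or more in at least 3 of the 72 libraries. They number 111 of the 27655 genes in the table. The chloroplast gave 68 members from 88 rows, and the mitochondrion gave 43 members from 122 rows. The rest of both genomes was counted too thinly to describe, and 2 chloroplast and 4 mitochondrial rows had a count of 0 in every library.

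The 24 groups had 3 libraries each. Seedlings were 10 days old, grown hydroponically with 10 h of light and 14 h of dark, and received either 0.5 mM NHP or mock medium. They were harvested 15 min, 30 min, 3 h or 6 h later. Col-0 is the wild type. The sid2-2 mutant lacks a working isochorismate synthase (SID2), which plants need to make salicylic acid, and the fmo1-1 mutant lacks FMO1, the enzyme that hydroxylates pipecolic acid to NHP. Each library came from whole seedlings pooled from 1 well, so the tests measure the spread between wells. The study's methods give 1 genotype per plate. In comparisons between genotypes, plate and genotype therefore cannot be told apart. The library listed as sid2-2 at 30 min with NHP, replicate 3, carries another time, 180 min, in a second label field, and was kept in the group of its title. SID2 transcript abundance was 0.433 to 1.52 CPM (counts scaled to library size, with TMM factors) in the 24 sid2-2 libraries against 7.36 to 13.1 CPM in the 24 Col-0 libraries. FMO1 was 0.0419 to 0.5 CPM in fmo1-1 and 1.77 to 4.57 CPM in Col-0.

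Both organelles keep small genomes that encode part of their own machinery. In the chloroplast these are subunits of the photosystems, of the NAD(P)H dehydrogenase-like complex (NDH), of the ribosome and of a bacterial-type RNA polymerase, while most chloroplast proteins come from nuclear genes. Chloroplast genes are read as long polycistronic RNAs that are cut and trimmed, so neighbouring genes often share a transcript. The mitochondrial genome encodes subunits of the respiratory chain, of the ATP synthase and of the ribosome. In plant organelles a poly(A) tail marks an RNA for decay rather than for translation. The libraries here were made by poly(A) selection, so the counts report the organelle RNA that this selection kept and not the whole organelle transcript pool.

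The identifiers of 18 chloroplast members and 13 mitochondrial members could be paired with a gene name or product, from the identifier columns of a supplementary table of the study or from notes of the RefSeq annotation of TAIR10.1. The other members are counted and, where a result turns on them, given by identifier. Counts were not corrected for gene length, so levels are compared between libraries and not between genes.

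Chloroplast transcripts took 0.231% to 0.485% of the counts of a library, with a median of 0.372%. Mitochondrial transcripts took 0.00356% to 0.00693%, with a median of 0.00503%. A library thus held 52465 to 120313 chloroplast counts but only 733 to 1653 mitochondrial counts, out of 19618319 to 28382977 in all. The chloroplast counts were concentrated: ATCG00480 alone gave 45.2% of them, with 1050 to 2374 CPM across the libraries (here without TMM factors), and the 3 highest members together gave 63.8%. The third in rank was YCF1.2 (ATCG01130), which encodes the large Ycf1 protein of the inner envelope, with 8.01% of the chloroplast counts. At the other end was ATCG00360, with a mean count of 6.57. Among mitochondrial members ATMG00030 was highest, with a mean count of 336 and 28.3% of the mitochondrial counts, and NADH dehydrogenase 3 (ATMG00990) was lowest, with a mean count of 1.49. The mean count was under 50 for 39 of the 43 mitochondrial members and for 17 of the 68 chloroplast members. This depth set the precision. For NHP against mock in Col-0 at 3 h, the median standard error of a log2 fold change was 0.20 for chloroplast members and 0.44 for mitochondrial members.

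**Figure D1:**
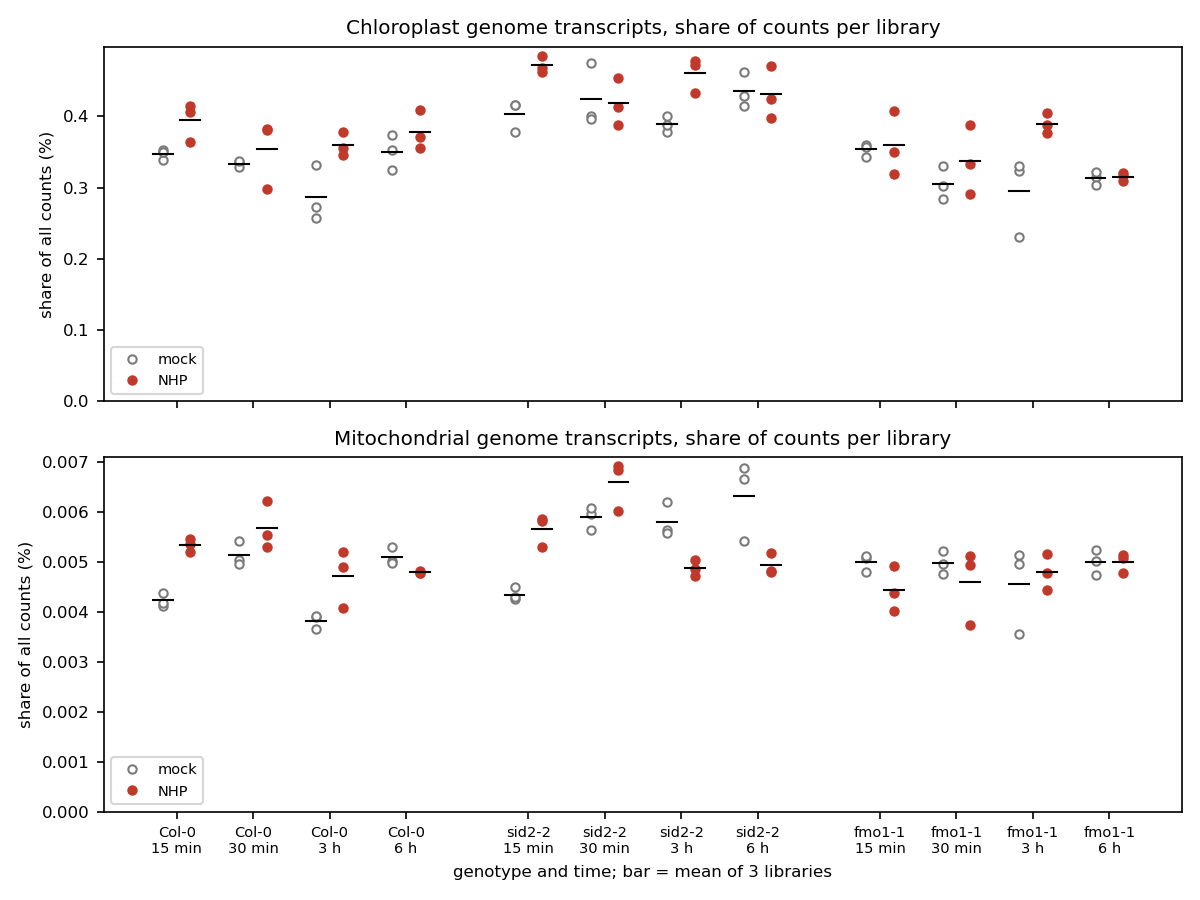
Share of all counts (percent, y axis) from the chloroplast genome (upper panel) and the mitochondrial genome (lower panel) in each of the 72 libraries, by genotype and time; open points are mock, filled points NHP, and bars the means of 3 libraries. The sid2-2 libraries range from 0.378% to 0.485% in the upper panel, and at 3 h the NHP points there lie above the mock points for every genotype.

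The summed shares are a description and were not tested. At 3 h the chloroplast share of the NHP libraries lay above that of the mock libraries in all 3 genotypes, with no overlap. It was 0.346% to 0.378% with NHP and 0.258% to 0.332% with mock in Col-0, 0.433% to 0.478% against 0.379% to 0.401% in sid2-2, and 0.377% to 0.405% against 0.231% to 0.331% in fmo1-1. At 15 min the shares were also apart in Col-0, 0.363% to 0.415% against 0.339% to 0.353%, and in sid2-2, 0.463% to 0.485% against 0.378% to 0.416%. At 30 min and 6 h they overlapped in every genotype, and so did those of fmo1-1 at 15 min. In whole seedlings, a different part of green cells and a different amount of chloroplast RNA per cell cannot be told apart. Nuclear shoot markers (RBCS1A, RBCS3B, LHCB1.1, LHCB1.2, RCA and DRT112, 6 of 6 detected in every library) summed to 27748 to 29321 CPM with NHP and 26325 to 27242 CPM with mock in Col-0 at 3 h. In sid2-2 at 3 h these sums were 36944 to 37277 CPM with NHP and 37182 to 39788 CPM with mock, and in fmo1-1 24698 to 25227 CPM and 24243 to 26900 CPM. Marker sums here and below are in CPM without TMM factors. The part of these markers in the shares was not tested.

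The mitochondrial share with NHP was higher than with mock at 15 min in Col-0 (0.0052% to 0.00546% against 0.00412% to 0.00439%) and in sid2-2 (0.0053% to 0.00586% against 0.00425% to 0.00451%), without overlap. In sid2-2 it was lower with NHP at 3 h, 0.00472% to 0.00503% against 0.00559% to 0.0062%, and at 6 h, 0.00481% to 0.00518% against 0.00542% to 0.00689%. In Col-0 it was higher with NHP at 3 h and lower at 6 h, also without overlap, while the fmo1-1 libraries overlapped at all 4 times. Single mitochondrial shares rest on 733 to 1653 counts.

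To ask which single transcripts responded to NHP, each NHP group was compared with the mock group of its genotype and time. At 3 h chloroplast transcripts rose in all genotypes and none fell. In Col-0, 12 of 68 chloroplast members rose (17.6%), while of all genes tested 3.86% were called and 1.69% were called higher. In sid2-2, 8 of 68 rose (11.8%), against 13% of all genes called and 5.79% called higher, and in fmo1-1, 12 of 68 rose (17.6%), against 3.95% called and 2.16% called higher. The median log2 fold change of the 68 members was 0.32 in Col-0, 0.14 in sid2-2 and 0.32 in fmo1-1, where the medians of all genes were 0.00, -0.01 and 0.00. A call is an adjusted p below 0.05 in edgeR's quasi-likelihood test, adjusted over the 21042 genes tested.

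In sid2-2 and fmo1-1 the transcripts that rose at 3 h included YCF1.2 and the NDH subunits NDHA and NDHH. YCF1.2 (ATCG01130) was at 136, 159 and 161 CPM in the sid2-2 mock libraries and at 267, 405 and 419 CPM with NHP. In fmo1-1 it was at 131, 227 and 247 CPM with mock and at 402, 454 and 538 CPM with NHP. The groups were apart in both mutants, with log2 fold changes of 1.26 (SE 0.26, adjusted p = 5.6e-04) in sid2-2 and 1.204 (SE 0.25, adjusted p = 0.0014) in fmo1-1. In Col-0 the groups overlapped: 1 mock library was at 290 CPM beside 143 and 162 CPM, and the NHP libraries were at 219, 237 and 298 CPM. The log2 fold change there was 0.34 (SE 0.25, adjusted p = 0.60).

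NDHH (ATCG01110) was at 6.30, 6.95 and 7 CPM in the sid2-2 mock libraries and at 8.04, 11.1 and 13.2 CPM with NHP. In fmo1-1 it was at 4.56, 7.21 and 8.90 CPM with mock and at 12.5, 12.9 and 13.8 CPM with NHP. It rose by 0.67 on the log2 scale in sid2-2 (SE 0.22, adjusted p = 0.036) and by 0.93 in fmo1-1 (SE 0.21, adjusted p = 0.0041). NDHA (ATCG01100) rose by 0.87 in sid2-2 (SE 0.26, adjusted p = 0.019) and by 1.00 in fmo1-1 (SE 0.24, adjusted p = 0.0072). In the RefSeq annotation of TAIR10.1, NDHA, NDHH, RPS15 and YCF1 follow each other with no other protein gene between them. RPS15 (ATCG01120), a protein of the small ribosomal subunit, was not called in either mutant, with log2 fold changes of 0.42 (adjusted p = 0.28) in sid2-2 and 0.70 (adjusted p = 0.080) in fmo1-1.

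RPL14 (ATCG00780), a protein of the large ribosomal subunit, rose in fmo1-1 by 0.40 (adjusted p = 0.039; relative to the other chloroplast transcripts, -0.014) and was not called in sid2-2, with 0.32 (adjusted p = 0.061). RPL22 (ATCG00810), also of the large subunit, rose in sid2-2 by 0.55 (adjusted p = 0.010), and its value in fmo1-1 was 0.37 (adjusted p = 0.20). The CemA-like transcript ATCG00530 rose in sid2-2 by 0.51 (adjusted p = 0.047). ATCG00480, the chloroplast member with the highest counts, rose in fmo1-1 by 0.31 (SE 0.09, adjusted p = 0.031).

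In Col-0 the transcripts that rose at 3 h and had a gene name or product in the sources used were ribosomal. The others that rose there had neither, so the list as a whole cannot be called ribosomal. They were ATCG00040, ATCG00150, ATCG00490, ATCG00630, ATCG00650, ATCG00830 and ATCG01020. RPS19 (ATCG00820), of the small subunit, was at 7.30, 10.0 and 11.7 CPM with mock and at 16.7, 16.7 and 19.2 CPM with NHP. RPL2 (ATCG01310), of the large subunit, was at 81.9, 87.8 and 95.8 CPM with mock and at 131, 136 and 143 CPM with NHP. RPS19 rose by 0.85 (SE 0.16, adjusted p = 2.1e-04) and RPL2 by 0.63 (SE 0.13, adjusted p = 7.4e-04). RPL23-A, of the large subunit, is listed under 2 identifiers. ATCG01300 was at 2.28, 2.99 and 3.504 CPM with mock and at 5.22, 5.57 and 5.98 CPM with NHP, and rose by 0.93 (SE 0.18, adjusted p = 3.5e-04). ATCG00840 rose by 0.74 (SE 0.16, adjusted p = 0.0022). RPS15 (ATCG01120) rose by 0.89 (SE 0.25, adjusted p = 0.032). RPL22, RPS19, RPL2 and RPL23 are neighbours in the RefSeq annotation of TAIR10.1, where RPL23 is present in 2 copies.

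The RPL23-A identifiers ATCG00840 and ATCG01300 summed to 9338 and 8941 counts over the 72 libraries. Library by library their counts differed by no more than counting noise (chi-square per degree of freedom 0.98 over 72 libraries). How reads that match both were assigned is not given in the sources used here, so these rows are not independent measurements. RPL2 lies beside both copies of RPL23 in the RefSeq annotation of TAIR10.1, and YCF1 is present there in 2 copies. Counts of members can thus hold 1 gene more than once, and not every member with a second copy is identified here.

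**Figure D2:**
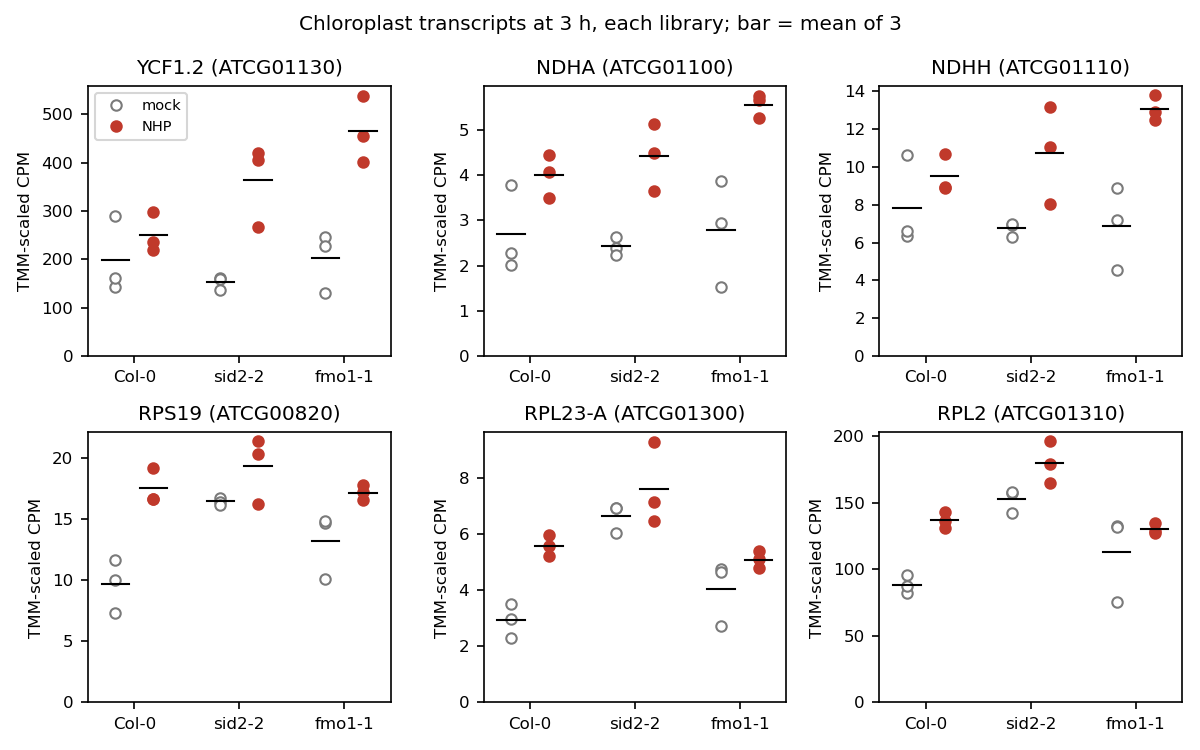
Transcript abundance (TMM-scaled CPM, y axis from 0) of 6 chloroplast transcripts at 3 h in each library of the 3 genotypes; open points are mock, filled points NHP, and bars the means of 3 libraries. YCF1.2, NDHA and NDHH are apart between mock and NHP in sid2-2 and fmo1-1, while RPS19, RPL23-A (ATCG01300) and RPL2 are apart in Col-0 (RPL2 in sid2-2 and RPS19 in fmo1-1 as well), with mock at 81.9 to 95.8 CPM and NHP at 131 to 143 CPM for RPL2.

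Of the 8 chloroplast members that rose in sid2-2 at 3 h, 6 also rose in fmo1-1 (75% of the sid2-2 list and 50% of the fmo1-1 list of 12). The 12 that rose in Col-0 shared 0 members with either list. The matching overlaps over all genes were not computed. Each genotype had its own mock libraries. These lists do not show that the genotypes responded differently, which was tested as the difference between the NHP response of a mutant and that of Col-0. At 3 h this difference was called for 0 of 68 chloroplast and 0 of 40 mitochondrial members in fmo1-1 (edgeR, 14 and 4 at an unadjusted p under 0.05, and 0 and 0 with DESeq2), where 0.00475% of all genes were called. The difference for YCF1.2 (ATCG01130) was 0.86 in fmo1-1 (adjusted p = 0.71) and 0.92 in sid2-2 (adjusted p = 0.17). For RPL23-A (ATCG01300) it was -0.60 in fmo1-1 (adjusted p = 0.71) and -0.72 in sid2-2 (adjusted p = 0.097). In sid2-2 the difference at 3 h was called for 2 chloroplast members (2.94%) and 1 mitochondrial member (2.5%), all lower than in Col-0, near the 2.17% of all genes. The largest of these in CPM was ATCG01020, which was at 8.17, 9.64 and 13.2 CPM with mock and 13.6, 18.4 and 19.7 CPM with NHP in Col-0, and at 25.5, 25.8 and 29.2 CPM with mock and 20.3, 21.6 and 22.9 CPM with NHP in sid2-2. At 6 h a difference was called for 1 mitochondrial member (2.5%) in sid2-2, against 1.06% of all genes.

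For the other differences of response, no member was called. In sid2-2 these were 15 min (0% of all genes called; edgeR, 3 chloroplast and 2 mitochondrial members at an unadjusted p under 0.05) and 30 min (0.204%; 4 and 2 members). In fmo1-1 they were 15 min (0.181%; 4 and 7 members), 30 min (0%; 2 and 4 members) and 6 h (0%; 6 and 2 members). DESeq2 called 0 members in each of these 5. At 6 h the count of chloroplast members in sid2-2 was 0 with edgeR (7 at an unadjusted p under 0.05) and 2 with DESeq2.

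The 3 h counts rest on few libraries. Without replicate 1 of the fmo1-1 mock libraries, which had the lowest chloroplast share of all 72 libraries (0.231%), 0 members were called in fmo1-1 in place of 12, and YCF1.2 had a log2 fold change of 0.97 (adjusted p = 0.0501). Without NHP replicate 1, 2 or 3 the fmo1-1 count was 7, 7 and 5. In Col-0 the count fell to 5, 7 and 6 without mock replicate 1, mock replicate 2 and NHP replicate 1, and in sid2-2 to 5, 4, 4 and 5 without mock replicates 1 and 2 and NHP replicates 2 and 3. RPS19, RPL2 and both RPL23-A rows in Col-0, and YCF1.2 in sid2-2, passed the test in each of the 6 refits that left out 1 library. Other named members were less stable. In sid2-2 NDHA and RPL22 passed in 3 of 6, NDHH in 1 and ATCG00530 in 0. In fmo1-1 YCF1.2, NDHA and NDHH passed in 5 of 6 and RPL14 in 1. RPS15 in Col-0 passed in 2 of 6. In Col-0 and sid2-2 all NHP libraries at 15 min, 30 min and 3 h came from other batches of the study's setup table than their mock libraries, so treatment and batch cannot be told apart there. No batch was given for fmo1-1.

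**Figure D3:**
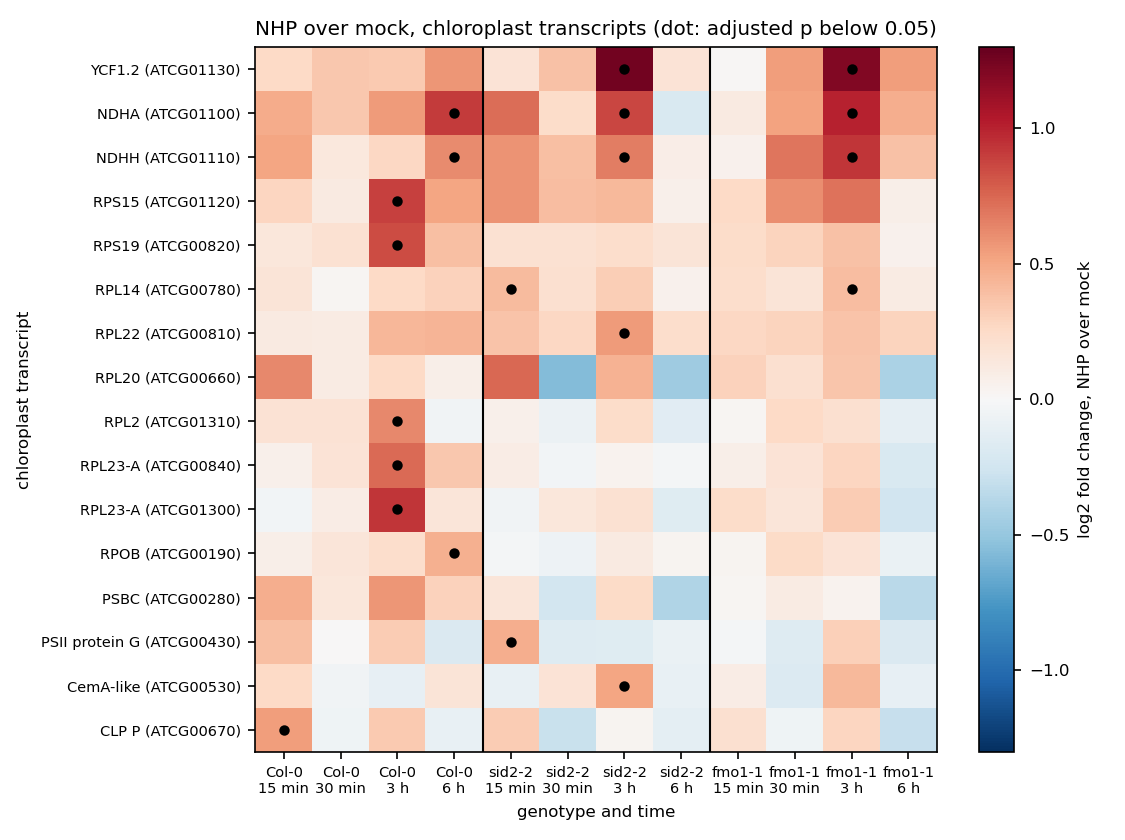
Log2 fold change of NHP over mock (colour) for 16 of the 18 chloroplast transcripts with an annotation (rows) in the 12 comparisons of genotype and time (columns); dots mark adjusted p below 0.05 in edgeR's quasi-likelihood test over all genes. The dots for YCF1.2, NDHA and NDHH fall together at 3 h in sid2-2 and fmo1-1, and those for RPS19, RPL2 and both RPL23-A rows at 3 h in Col-0.

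At 15 min, 3 chloroplast members and 1 mitochondrial member were called in Col-0 (4.41% and 2.5% of those tested, against 2.71% of all genes). The CLP P transcript ATCG00670, which encodes the catalytic subunit of the chloroplast Clp protease, was at 6.79, 7.32 and 8.47 CPM with mock and at 9.97, 10.4 and 12.4 CPM with NHP, apart and higher by 0.54 (SE 0.13, adjusted p = 0.010). In sid2-2, 5 chloroplast members (7.35%) and 1 mitochondrial member (2.5%) were called at 15 min, against 4.88% of all genes. RPL14 (ATCG00780) rose from 85.1, 93.5 and 105 CPM to 124, 125 and 126 CPM, by 0.41 (adjusted p = 0.029). The transcript ATCG00430 rose by 0.47 (adjusted p = 0.039). Its label, photosystem II reaction center protein G, comes from a RefSeq note on the nuclear gene AT5G11770 and was not checked. ATCG00490 fell, from 18.1, 18.9 and 22 CPM to 12.8, 14.4 and 14.4 CPM, by 0.51 on the log2 scale (adjusted p = 0.0037). The Col-0 count was 1, 1 and 0 without mock replicate 1, mock replicate 2 and NHP replicate 3, and the sid2-2 count 1 and 3 without mock replicate 2 and NHP replicate 1. CLP P in Col-0 passed the test in 4 of 6 refits without 1 library. In sid2-2 ATCG00490 passed in 6 of 6, ATCG00430 in 2 and RPL14 in 1.

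At 6 h, 6 chloroplast members (8.82%) and 1 mitochondrial member (2.5%) were called in Col-0, against 6.82% of all genes. NDHA (ATCG01100) was at 2.85, 3.51 and 3.76 CPM with mock and at 4.95, 5.98 and 8.15 CPM with NHP, and NDHH (ATCG01110) at 8.89, 9.19 and 12.01 CPM with mock and at 14.1, 14.4 and 17.7 CPM with NHP. Both sets of libraries were apart. NDHA rose by 0.91 (SE 0.23, adjusted p = 0.0079) and NDHH by 0.61 (SE 0.20, adjusted p = 0.0499). RPOB (ATCG00190), the beta subunit of the plastid-encoded RNA polymerase, rose by 0.46 (adjusted p = 0.012). ATCG00330 fell, from 20.02, 23.3 and 30.6 CPM to 7.93, 10.14 and 18.6 CPM, by 1.02 on the log2 scale (SE 0.27, adjusted p = 0.012). None of the 7 members was called with batch as a term: NDHA then had a log2 fold change of 1.22 (adjusted p = 0.13). Each library mattered: the chloroplast count was 2, 1 and 11 without mock replicates 1, 2 and 3, and 3, 2 and 3 without NHP replicates 1, 2 and 3. NDHA passed the test in 4 of 6 refits without 1 library, RPOB and ATCG00330 in 3 and NDHH in 1.

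In the other 6 comparisons of NHP with mock, at most 1 member of each organelle was called. At 30 min no member was called in Col-0 (2.02% of all genes; edgeR, 1 chloroplast and 3 mitochondrial members at an unadjusted p under 0.05, and 1 and 0 with DESeq2) or in sid2-2 (1.85%; 7 and 3 members, and 0 and 0 with DESeq2). In fmo1-1 at 30 min 1 chloroplast member, ATCG00490, fell by 0.45 (adjusted p = 0.020), against 2.7% of all genes called. At 15 min in fmo1-1 no member was called (3.95% of all genes; 4 and 2 members at an unadjusted p under 0.05, and 1 and 0 with DESeq2). At 6 h 1 mitochondrial member fell in sid2-2, where 11% of all genes were called, and 1 chloroplast member fell in fmo1-1, where 5.16% were called. The chloroplast count in sid2-2 at 6 h was 0 (edgeR, 5 at an unadjusted p under 0.05, and 0 with DESeq2).

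Among mitochondrial members, 1 rose in Col-0 at 15 min and at 6 h and in sid2-2 at 15 min, 2 fell in sid2-2 at 3 h and 1 at 6 h. As shares of the 40 members these counts are 2.5%, 2.5%, 2.5%, 5% and 2.5%, and 2.71%, 6.82%, 4.88%, 13% and 11% of all genes were called in the same comparisons, so each share was below that of all genes. None of these had a gene name in the sources used, and each of these counts reached 0 when certain single libraries were left out. In sid2-2 at 3 h the median of the 40 mitochondrial members tested was -0.40, and at 6 h it was -0.47, where 31 and 35 of the 40 estimates were below 0. The count was 0 at 3 h in Col-0 (edgeR, 4 at an unadjusted p under 0.05, and 0 with DESeq2) and at all 4 times in fmo1-1 (2, 1, 2 and 3 members, and 0 with DESeq2).

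Without NHP, the chloroplast share was higher in sid2-2 than in Col-0 at all 4 times, with no overlap of libraries, and many single chloroplast transcripts were higher. Without ATCG00480, which had the highest counts, the shares overlapped at 15 min (0.199% to 0.221% in sid2-2 against 0.199% to 0.203% in Col-0) and at 6 h (0.204% to 0.236% against 0.170% to 0.233%). They stayed apart without it at 30 min (0.196% to 0.238% against 0.182% to 0.192%) and at 3 h (0.190% to 0.199% against 0.130% to 0.181%). At 30 min and 3 h all sid2-2 mock libraries came from other batches than those of Col-0, so genotype and batch cannot be told apart at these times. In mock libraries 19, 19, 36 and 27 of 68 chloroplast members were higher in sid2-2 at the 4 times in order, where 17.5%, 13.3%, 20.2% and 18.8% of all genes were called higher. As shares of the members these are 27.9%, 27.9%, 52.9% and 39.7%. Only 2, 1, 0 and 0 were lower, where 13.9%, 12.3%, 16.4% and 12.6% of all genes were called lower. Of the 40 mitochondrial members tested, 1, 6, 12 and 15 were higher and 0 were lower. In all, 40 of the 68 chloroplast members were higher at 1 or more times and 12 at all 4 times. The matching shares of all genes were not computed, so these counts have no background beside them. The median log2 difference of the chloroplast members was 0.32, 0.33, 0.57 and 0.43, and that of the mitochondrial members 0.26, 0.48, 0.74 and 0.62. The medians of all genes lay between -0.01 and 0.02. The Col-0 mock libraries are shared with the comparisons of fmo1-1 and Col-0.

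ATCG00480 was among the 12. It was at 1394, 1459 and 1522 CPM in Col-0 and at 1902, 2071 and 2340 CPM in sid2-2 at 15 min, with no overlap, and was higher by 0.53 (SE 0.09, adjusted p = 6.1e-06). At 3 h it was at 1226, 1230 and 1445 CPM in Col-0 and at 2024, 2069 and 2207 CPM in sid2-2, higher by 0.69 (adjusted p = 1.1e-08). The CLP P transcript (ATCG00670), the ATCG00430 transcript and RPL2 (ATCG01310) were higher at all 4 times too. CLP P was higher by 0.53, 0.60, 0.74 and 0.35, and RPL2 by 0.40, 0.38, 0.79 and 0.38. With batch as a term the 6 h calls of ATCG00430 (adjusted p = 0.30) and RPL2 (adjusted p = 0.25) were lost, and that of CLP P was kept (adjusted p = 0.0015). When 1 library was left out at 6 h, ATCG00430 passed the test in 1 of 6 refits, RPL2 in 2 and CLP P in 2, and at 15 min ATCG00430 passed in 1 of 6. With library size set to the summed chloroplast counts, which gives values relative to the other chloroplast transcripts, RPL2 was at -0.071 at 30 min and -0.064 at 6 h, CLP P at -0.10 and ATCG00430 at -0.092 at 6 h.

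The RPL23-A rows were also higher at 3 h. ATCG00840 was at 2.75, 2.83 and 3.78 CPM in Col-0 and at 7.03, 7.58 and 7.60 CPM in sid2-2, higher by 1.24 (SE 0.16, adjusted p = 3.0e-09). The Col-0 mock libraries at 3 h are also the base of the Col-0 response to NHP, in which RPL23-A, RPL2, RPS19 and others rose, so those results share 3 libraries. PSBC (ATCG00280), the CP43 antenna protein of photosystem II, was at 21.6, 25.6 and 30.0 CPM in Col-0 and at 43.4, 45.8 and 50.7 CPM in sid2-2 at 3 h, higher by 0.86 (adjusted p = 3.0e-04), and was higher by 0.73 at 6 h (adjusted p = 0.0025).

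NDHA and NDHH went the other way early. NDHA (ATCG01100) was at 5.68, 5.71 and 5.81 CPM in Col-0 and at 2.91, 3.27 and 3.67 CPM in sid2-2 at 15 min, lower by a log2 difference of -0.79 (SE 0.24, adjusted p = 0.0085). NDHH (ATCG01110) was at 13.2, 13.4 and 13.4 CPM in Col-0 and at 7.62, 9.48 and 10.096 CPM in sid2-2 at 15 min, a difference of -0.56 (adjusted p = 0.033), and the difference at 30 min was -0.61 (adjusted p = 0.036). Neither was called at 3 h or 6 h. The NDHA difference at 15 min passed the test in 6 of 6 refits without 1 library, and that of NDHH in 1 of 6 at 15 min and in 0 of 6 at 30 min.

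**Figure D4:**
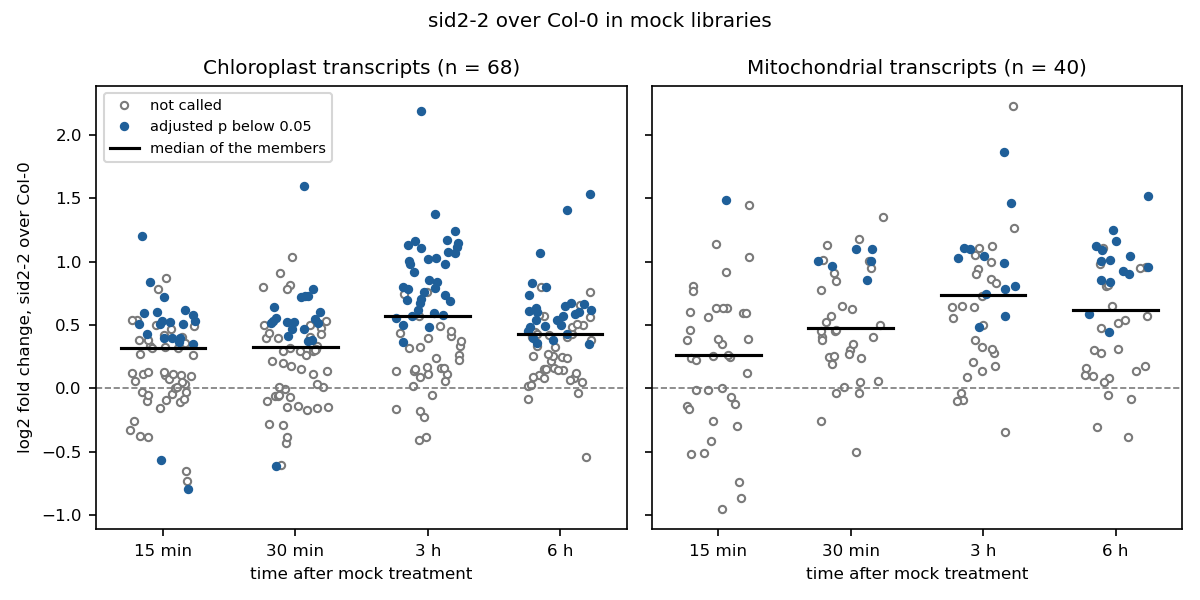
Log2 difference between sid2-2 and Col-0 in mock libraries (y axis) for each of the 68 chloroplast (left) and 40 mitochondrial (right) transcripts tested at each time; filled points have adjusted p below 0.05, and bars are medians of the members. The medians lie above 0 at all 4 times, at 0.57 and 0.74 at 3 h, and the filled points below 0 are NDHA and NDHH.

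Of the named mitochondrial transcripts, ATPase subunit 6-1 (ATMG00410), part of the proton channel of the ATP synthase, was higher in sid2-2 at all 4 times, although only 2 of 6 refits without 1 library called it at 30 min and 3 of 6 at 6 h. It was at 0, 0.637 and 0.687 CPM in Col-0 and at 1.47, 1.76 and 1.79 CPM in sid2-2 at 3 h, higher by 1.86 (SE 0.39, adjusted p = 8.3e-05). It was also higher in fmo1-1 at 15 min, at 0.958, 1.49 and 1.51 CPM against 0.242, 0.516 and 0.523 CPM, by 1.59 (adjusted p = 0.048), a call lost whichever of the 6 libraries was left out. ATMG00030, the mitochondrial member with the highest counts, was at 7.81, 9.36 and 9.50 CPM in Col-0 and at 15.7, 19.1 and 20.2 CPM in sid2-2 at 3 h, higher by 1.04 (SE 0.20, adjusted p = 3.9e-05). It was not called at the other times.

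Chromosome 2 of Arabidopsis holds a large insertion of mitochondrial DNA, and notes of the RefSeq annotation tie 15 of the 43 mitochondrial members to a nuclear gene there. The nuclear gene had the higher mean count in 9 of these 15. ATMG00410 had a mean count of 25.6 and its partner AT2G07741 of 0.917, whereas the ATP synthase subunit 1 row ATMG01190 had 53.4 and its partner AT2G07698 had 111. For F0-ATPase subunit 9 (ATMG01080) the means were 7.22 and 171. How reads that match both places were assigned is not given in the sources used here, so an RNA cannot be placed in either genome with certainty from these rows. In sid2-2 at 3 h the cytochrome c biogenesis row ATMG00180 was higher by 0.78 (adjusted p = 0.025) and its partner AT2G07815 by 1.99 (adjusted p = 7.1e-04). The ATP synthase 9 row ATMG01090 was higher by 0.99 (adjusted p = 0.034) and AT2G07777 by 0.88 (adjusted p = 0.028).

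The nuclear shoot markers stood beside this difference. They summed to 40371 to 40545 CPM in sid2-2 and 30076 to 30385 CPM in Col-0 mock libraries at 15 min, a ratio of means of 1.34, and the ratios at 30 min, 3 h and 6 h were 1.26, 1.45 and 1.40. The ratios of the chloroplast shares were 1.16, 1.27, 1.35 and 1.24. Root markers (PYK10, LRX1, RHD6, SHR, SCR and COBL9, 6 of 6 detected) summed to less in sid2-2 than in Col-0 without overlap at 15 min, 30 min and 3 h, with ratios of means of 0.855, 0.882 and 0.841. PYK10 gave most of these sums: its mean was 4050 CPM over all libraries, and the other means were 2.75 to 41.3 CPM. The sums thus follow PYK10, and the other root markers are not given apart by genotype. At 3 h the sums were 3425 to 4011 CPM in sid2-2 and 4212 to 4405 CPM in Col-0. At 6 h they overlapped, with 4174 to 4537 CPM in sid2-2 and 4367 to 4766 CPM in Col-0 and a ratio of 0.956. The part of these markers in the organelle differences was not tested. At 15 min the Col-0 and sid2-2 mock libraries came from 1 batch, and at 30 min and 3 h no batch term could be fitted. Each plate held 1 genotype, so plate and genotype cannot be told apart at any time. At 6 h, where a batch term could be fitted, 11 of 68 chloroplast and 5 of 40 mitochondrial members were called with it in place of 27 and 15.

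Single libraries moved these counts. The chloroplast count was 13 at 15 min without replicate 1 of Col-0 or of sid2-2, 10 at 30 min without replicate 3 of sid2-2, and 16 and 13 at 6 h without replicate 2 of Col-0 and of sid2-2. The mitochondrial count was 3 and 2 at 15 min without replicates 1 and 2 of sid2-2, 1 and 2 at 30 min without replicate 2 of Col-0 and replicate 3 of sid2-2, 5 at 3 h without replicate 2 of Col-0, and 7, 7, 5 and 5 at 6 h without replicates 2 and 3 of Col-0 and replicates 2 and 3 of sid2-2. At 3 h the chloroplast count stayed between 26 and 38.

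In fmo1-1 mock libraries no chloroplast member was called against Col-0 at any time (edgeR, 2, 10, 9 and 6 members at an unadjusted p under 0.05, and 0 with DESeq2 at each time). ATMG00410 at 15 min was the only mitochondrial call; at 30 min, 3 h and 6 h the count was 0 (4, 3 and 5 members at an unadjusted p under 0.05, and 0 with DESeq2). Of all genes 0.561%, 0.299%, 0.0665% and 0.0713% were called at the 4 times. Leaving out fmo1-1 mock replicate 1 at 3 h gave 2 chloroplast calls. The chloroplast share of the fmo1-1 libraries was lower than that of Col-0 at 6 h without overlap (0.304% to 0.321% against 0.325% to 0.373%, a ratio of means of 0.895) and overlapped at the other times. Their mitochondrial share was higher at 15 min without overlap (0.0048% to 0.00512% against 0.00412% to 0.00439%, a ratio of 1.18) and overlapped at the other times.

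Between 15 min and 6 h in mock libraries, 8 chloroplast members were called in Col-0, 4 in sid2-2 and 12 in fmo1-1 (11.8%, 5.88% and 17.6%), where 37.2%, 36.6% and 35.5% of all genes were called. In Col-0 and sid2-2 the 6 h libraries came from other batches than the 15 min libraries, so time and batch cannot be told apart there. The mitochondrial counts were 4, 6 and 2 of 40. PSBC (ATCG00280) fell in Col-0 from 38.4, 39.2 and 43.7 CPM to 20.8, 22.7 and 27.2 CPM, by 0.77 on the log2 scale (adjusted p = 0.0011), and in fmo1-1 from 42.3, 44.6 and 44.7 CPM to 25.2, 25.8 and 29.01 CPM, by 0.72 (adjusted p = 0.0022). NDHA (ATCG01100) fell by 0.76 in Col-0 (adjusted p = 0.0081) and by 0.72 in fmo1-1 (adjusted p = 0.015). In sid2-2 NDHA had a log2 difference of 0.31 (adjusted p = 0.36). Leaving out 1 library gave 4 to 12 chloroplast calls in Col-0 (4 without 6 h replicate 2, 5 without each of the 15 min replicates), 0 to 4 in sid2-2 (0 without 6 h replicate 2, and 2 without 15 min replicate 3 or 6 h replicate 3) and 4 to 11 in fmo1-1 (4 without 15 min replicate 1, and 6 without 6 h replicate 3). The mitochondrial count fell to 2, 1 and 1 in Col-0 without 15 min replicates 1 and 3 and 6 h replicate 2, and to 3 in sid2-2 without 6 h replicate 2. In fmo1-1 it fell to 1, 0, 0 and 1 without 15 min replicates 1 and 3 and 6 h replicates 2 and 3.

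Chloroplast genes are transcribed by the plastid-encoded polymerase with nuclear sigma factors and associated proteins (PAPs), and by phage-type polymerases from the nucleus. Of 27 nuclear genes for organelle transcription, RNA processing and decay, 1 was called with NHP in Col-0 at 3 h, where 3.86% of all genes were called. This was PAP9, which rose by 0.30 (edgeR, adjusted p = 0.033). None was called in Col-0 at 15 min, 30 min or 6 h, where 2.71%, 2.02% and 6.82% of all genes were called. In sid2-2, 6 PAP genes rose at 15 min, where 2.45% of all genes were called higher, with PAP5 and PAP10 highest at 0.39 (adjusted p = 0.0031 and 0.012). At 3 h, where 7.23% of all genes were called lower, 4 genes fell, among them SIG2, a sigma factor that acts mainly on tRNA genes and some photosynthesis genes, by 0.23 (adjusted p = 0.0019), and CSP41A and CSP41B, RNA-binding proteins that protect chloroplast RNA, by 0.19 and 0.18. At 6 h, where 6.04% of all genes were called lower, 4 genes fell, SIG2 by 0.19 and 3 PAP genes. In fmo1-1 at 15 min SIG1 fell by 0.30 and SIG5, a sigma factor induced by light and stress, by 0.63 (adjusted p = 3.2e-04). Of all genes 2.66% were called lower there. RPOTp, a phage-type polymerase of the chloroplast, rose in this mutant by 0.27 at 30 min, where 0.946% of all genes were called higher. SIG2 fell by 0.17 at 6 h, where 2.52% were called lower. None was called at 3 h, where 3.95% of all genes were called. The median of the 27 genes at 3 h was 0.10 in Col-0, -0.13 in sid2-2 and -0.01 in fmo1-1.

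In mock libraries 17, 9, 21 and 21 of the 27 nuclear genes were higher in sid2-2 than in Col-0 at the 4 times and 0 were lower, beside the 17.5%, 13.3%, 20.2% and 18.8% of all genes called higher. Their median log2 differences were 0.22, 0.15, 0.40 and 0.33. The sigma factors SIG1, SIG2, SIG3, SIG4 and SIG6 were higher at all 4 times. In fmo1-1 none of the 27 was called at any time, where 0.561%, 0.299%, 0.0665% and 0.0713% of all genes were called.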

How the data were processed

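Poly(A)-selected RNA from whole seedlings was sequenced as paired 100-bp reads. Per the study's methods, the authors checked reads with FastQC and trimmed and mapped them to TAIR10 in CLC Genomics Workbench. The deposited values are whole-number counts per gene and library, not normalized. How reads matching several places or the opposite strand were counted is not given in the sources used here, so overlapping genes on opposite strands cannot be told apart. No line of the table was without a gene, and 0 count columns were left unused.

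The 72 libraries, of 19618319 to 28382977 counts each, were fitted in 1 model of 24 group means with edgeR 4.0.16 (R 4.3.3; TMM scaling, filterByExpr, robust quasi-likelihood F test). It kept 21042 genes, 108 of them members. Contrasts were NHP over mock (12), mutant over Col-0 in mock (8), 6 h over 15 min in mock (3), and mutant NHP response minus that of Col-0 (8), each with Benjamini-Hochberg adjustment over all genes. The scripts were tested on simulated data. No 2 replicates of a group were alike within counting noise (chi-square per degree of freedom 2.61 to 15.0).

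The members and the gene lists were chosen with earlier results of these data known. Named genes were the called members with the smallest adjusted p in each contrast (up to 3 for NHP, up to 2 otherwise), the highest and lowest members and the highest of each functional class. The rule was applied to identifiers with an annotation, and the others are mostly counted; further annotated members were named after their values were seen. Alternatives were other scalings, no filter, DESeq2 1.42.0, a replicate block, a batch term and leaving out each library. Some annotated members are counted but not reported here by name.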

Additional observations from a re-analysis of the deposited data

Results flagged for a closer look

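For 4 members the response to NHP differed between sid2-2 and Col-0 by the test of the difference itself (edgeR's quasi-likelihood test, adjusted over all genes). At 3 h this was -0.66 on the log2 scale for ATCG00490 (SE 0.16, adjusted p = 0.020), which was at 10.7, 11.3 and 11.4 CPM with mock and 13.5, 15.4 and 15.7 CPM with NHP in Col-0, and at 16.7, 17.1 and 19.4 CPM with mock and 13.8, 15.5 and 15.7 CPM with NHP in sid2-2. For ATCG01020 the difference at 3 h was -1.05 (SE 0.27, adjusted p = 0.029), and DESeq2 gave an adjusted p of 0.0063.

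For the mitochondrial ATMG00170 the difference at 3 h was -2.03 (SE 0.53, adjusted p = 0.028), with 0.320, 0.478 and 0.728 CPM (mock) and 0.568, 0.764 and 1.00 CPM (NHP) in Col-0 and 0.529, 0.830 and 1.07 CPM (mock) and 0.267, 0.293 and 0.313 CPM (NHP) in sid2-2. For ATMG00660 the difference at 6 h was -1.19 (SE 0.32, adjusted p = 0.049; DESeq2, 0.044), with 1.04, 1.12 and 1.41 CPM (mock) and 1.82, 1.94 and 2.06 CPM (NHP) in Col-0 and 1.33, 1.43 and 2.63 CPM (mock) and 0.890, 1.42 and 1.55 CPM (NHP) in sid2-2. At 3 h the batches of the study could not be told apart from these differences, since no batch term could be fitted. DESeq2 gave no adjusted p for ATCG00490 and ATMG00170. The sources used give no gene name for these 4 identifiers. At 3 h the calls were 2.94% of the chloroplast and 2.5% of the mitochondrial members tested, near the 2.17% of all genes called. At 6 h the call was 2.5% of the mitochondrial members, against 1.06% of all genes. Refits without 1 library were not run for these differences of response.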

How the results depend on the processing

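Counts below are members called, with the value as reported first. Scaling by DESeq2 size factors moved no count by more than 1.5 times. With library size set to the summed counts of the same organelle, the median of all genes moved to -0.63 (chloroplast) and -0.78 (mitochondrial) for sid2-2 over Col-0 at 3 h and to -0.43 (chloroplast) for NHP in fmo1-1 at 3 h, so these values are relative to the other organelle transcripts. NHP chloroplast counts then went from 3 to 0 (Col-0, 15 min), 5 to 2 (sid2-2, 15 min) and 1 to 3 (fmo1-1, 30 min), and mitochondrial counts from 0 to 1 and 1 to 0 (Col-0, 3 h and 6 h) and from 1 to 3 and 1 to 2 (sid2-2, 15 min and 6 h). For sid2-2 over Col-0 the mitochondrial counts went from 6, 12 and 15 to 1, 2 and 3 at 30 min, 3 h and 6 h and the chloroplast count from 27 to 14 at 6 h. For fmo1-1 over Col-0 at 6 h the chloroplast count went from 0 to 1. For 6 h over 15 min, the mitochondrial count went from 4 to 1 in Col-0 and from 2 to 0 in fmo1-1, and the chloroplast count from 12 to 6 in fmo1-1. Of the results for single named members, 48 kept direction and call with this library size. Another 57 kept the direction but were no longer called, and 5 turned direction. Directions turned for RPL14 (ATCG00780, -0.014, NHP in fmo1-1 at 3 h), for RPL2 (ATCG01310, -0.071 at 30 min and -0.064 at 6 h), ATCG00430 (-0.092 at 6 h) and CLP P (ATCG00670, -0.10 at 6 h), the last 4 for sid2-2 over Col-0.

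DESeq2 gave, for NHP chloroplast counts, 1 in place of 0 (Col-0, 30 min), 9 in place of 5 (sid2-2, 15 min), 1 in place of 0 (fmo1-1, 15 min) and 3 in place of 1 (fmo1-1, 30 min), and for mitochondrial counts 0 in place of 1 (Col-0, 6 h), 2 in place of 1 and 1 in place of 2 (sid2-2, 15 min and 3 h) and 1 in place of 2 (6 h over 15 min, fmo1-1). Without the filter the mitochondrial counts were 0 in place of 1 (NHP, Col-0, 6 h), 0 in place of 1 (fmo1-1 over Col-0, 15 min) and 0 in place of 2 (6 h over 15 min, fmo1-1), and with scaling from nuclear genes alone the last was 1. With a batch term the 6 h counts were 0 and 0 in place of 6 and 1 (NHP in Col-0), 0 in place of 1 (mitochondrial, NHP in sid2-2) and 11 and 5 in place of 27 and 15 (sid2-2 over Col-0, a fit chosen after seeing the data). The cause was not tested. The share without rRNA and tRNA was not run, since no member is annotated as either.

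Replicate numbers did not pair the samples: over 69 same-numbered pairs the correlation of deviations was -0.09 to 0.13, all pairs passed 0.1 in 0 of 23 contrasts, and 26 of 69 samples correlated best with their own number. With the replicate block the mitochondrial count was 0 in place of 1 (NHP, Col-0, 6 h), 2 in place of 1 (NHP, sid2-2, 15 min) and 1 in place of 2 (6 h over 15 min, fmo1-1), the chloroplast count 1 in place of 0 (NHP, fmo1-1, 15 min), and other counts stayed within 1.5 times.

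Leaving out 1 library gave these ranges of chloroplast counts for NHP: 0 to 4, 0 to 1, 5 to 14 and 1 to 11 in Col-0 at the 4 times in order, 1 to 6 and 4 to 8 in sid2-2 at 15 min and 3 h, and 0 to 1, 0 to 2, 0 to 13 and 0 to 2 in fmo1-1. Mitochondrial ranges were 0 to 1 in Col-0 and 0 to 4, 0 to 3 and 0 to 3 in sid2-2 at the times other than 30 min, and 0 to 1 in fmo1-1 at 15 min. For sid2-2 over Col-0 the ranges were 13 to 20, 10 to 20, 26 to 38 and 13 to 28 (chloroplast) and 1 to 3, 1 to 5, 5 to 11 and 5 to 15 (mitochondrial), for fmo1-1 over Col-0 0 to 2 (chloroplast, 3 h) and 0 to 0 (mitochondrial, 15 min), and for 6 h over 15 min 4 to 12, 0 to 4 and 4 to 11 (chloroplast) and 1 to 3, 3 to 8 and 0 to 2 (mitochondrial) in Col-0, sid2-2 and fmo1-1. Of 110 results for single named members, 41 passed the test in every refit. Low counts limit the mitochondrial values most.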
